A study of Mus musculus with 12 samples.

Results

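The 10 genes described here encode cytosolic heat shock proteins of the mouse liver: the HSP70 chaperones Hspa1a, Hspa1b and Hspa8, the HSP110 protein Hsph1, the HSP70 co-chaperones Dnajb1 and Bag3, the small heat shock protein Hspb1, the HSP90 chaperones Hsp90aa1 and Hsp90ab1, and the transcription factor Hsf1. They were chosen by symbol, with earlier results of these data known. They were found through their Ensembl identifiers, 10 of 50686 genes in the deposited table. All 10 were among the 14248 genes with enough counts to be tested.

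Livers came from FVB/N mice aged 6 to 8 weeks injected in the tail vein with lipid nanoparticles that carried small interfering RNA (siRNA). The dose was 0.5 mg/kg, with 1 injection in 5 days, and every group received the nanoparticles. The 4 groups of 3 libraries each were Eif3m siRNA at day 9, luciferase control siRNA (described as scrambled) at day 9, Eif3m siRNA at day 13 and the same control at day 13. Eif3m encodes a subunit of eIF3, a complex that helps load the small ribosomal subunit onto messenger RNA. RNA came from ground whole liver, so the cells that took up the nanoparticles were not separated from the others. The labels name the KAPA mRNA capture kit for the day 9 libraries and RNAseq-Neoprep for the day 13 libraries. Day and library kit therefore cannot be told apart, and each siRNA group was set against the controls of its own day. Whether the libraries of a group came from different animals is not stated in the labels. The p-values therefore reflect only how much these samples varied, which may be technical.

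Chaperones of the HSP70 family bind unfolded stretches of protein and release them in a cycle driven by ATP. J-domain proteins such as Dnajb1 deliver clients and start ATP hydrolysis, while nucleotide exchange factors such as Hsph1 and Bag3 let the client go. HSP90 acts later on clients that are nearly folded, and small heat shock proteins hold unfolded proteins without ATP. Hsf1 is the factor that binds heat shock elements, inverted repeats of the unit GAA, and raises transcription of the inducible members when unfolded protein accumulates. Hspa8 and Hsp90ab1 are made in nearly all cells, whereas Hspa1a and Hspa1b are kept low until stress.

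Library totals ran from 38783564 to 54538581 counts at day 9, and from 7650269 to 9630027 at day 13. Levels are given in CPM, counts scaled to library size, with TMM normalization. The targeted Eif3m transcript stood at 4.88, 4.78 and 4.71 CPM in the day 9 Eif3m siRNA libraries and 45.1, 44.1 and 45.4 CPM in their controls. At day 13 it stood at 2.52, 2.41 and 2.19 CPM in the Eif3m siRNA libraries and 39.8, 38.0 and 31.2 CPM in controls. Every siRNA library was below every control library, by 9.36-fold at day 9 and 15.3-fold at day 13 (log2 −3.23 and −3.94, adjusted p = 1.92e-09 and 2.66e-09, edgeR's quasi-likelihood test with Benjamini-Hochberg adjustment). The third principal component held 9.44% of the variance, and on it day 13 siRNA replicates 1, 2 and 3 scored −37.7, 36.9 and −4.68, and day 13 control replicates 1, 2 and 3 scored −18.0, −15.3 and 52.0. Control replicate 3 stood apart from the other 2 controls, and the 3 siRNA libraries were spread along the component. Albumin, the hepatocyte's main secreted protein, was at 64101 CPM or more in all 12 libraries.

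At day 9, 5 of the 10 transcripts (Hspa1a, Hspa1b, Hspa8, Hsph1 and Hspb1) were higher in Eif3m siRNA livers than in controls and 1 (Bag3) was lower, while Dnajb1, Hsp90aa1, Hsp90ab1 and Hsf1 did not pass the test. At day 13, 4 were higher (Hspa8, Hsph1, Hsp90ab1 and Hspb1), 4 were lower (Hspa1a, Hspa1b, Dnajb1 and Bag3), and Hsp90aa1 and Hsf1 did not pass. A gene is called where its adjusted p is under 0.05. Over all tested genes, 5.94% were called higher and 6.84% lower at day 9, and 12.8% were called higher and 10.9% lower at day 13. The day 13 split, 1824 genes higher and 1553 lower, was 1574 higher and 1808 lower with upper-quartile scaling. In either direction, 6 of the 10 members were called at day 9 against 12.8% of all tested genes, and 8 of 10 at day 13 against 23.7%. Since the members were chosen with earlier results of these data known, these shares describe them and do not test them as a set. Hspa8, Hsph1 and Hspb1 were called higher at both days, as were 3.54% of all tested genes, and Bag3 was called lower at both, as were 4.13%. At day 9 all siRNA libraries lay above all controls for 5 members and below all controls for 1, against 22.5% and 21.0% of all tested genes. At day 13 they lay above for 3 members and below for 4, against 17.2% and 16.0%. Hspa1a and Hspa1b were higher than control at day 9 and lower than control at day 13, each with its own call at both days. Of all tested genes, 40 (0.281%) had that pair of calls and 7 (0.0491%) had the reverse pair. The median log2 fold change of the 10 members was 0.38 at day 9 and 0.20 at day 13, against 0.01 and 0 for all tested genes. With the 2 highest-scoring day 13 libraries on the third component left out (siRNA replicate 2 and control replicate 3, an alternative chosen after seeing the data), 5 members were higher and 1 lower at day 9, and 3 were higher and 3 lower at day 13.

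**Figure D1:**
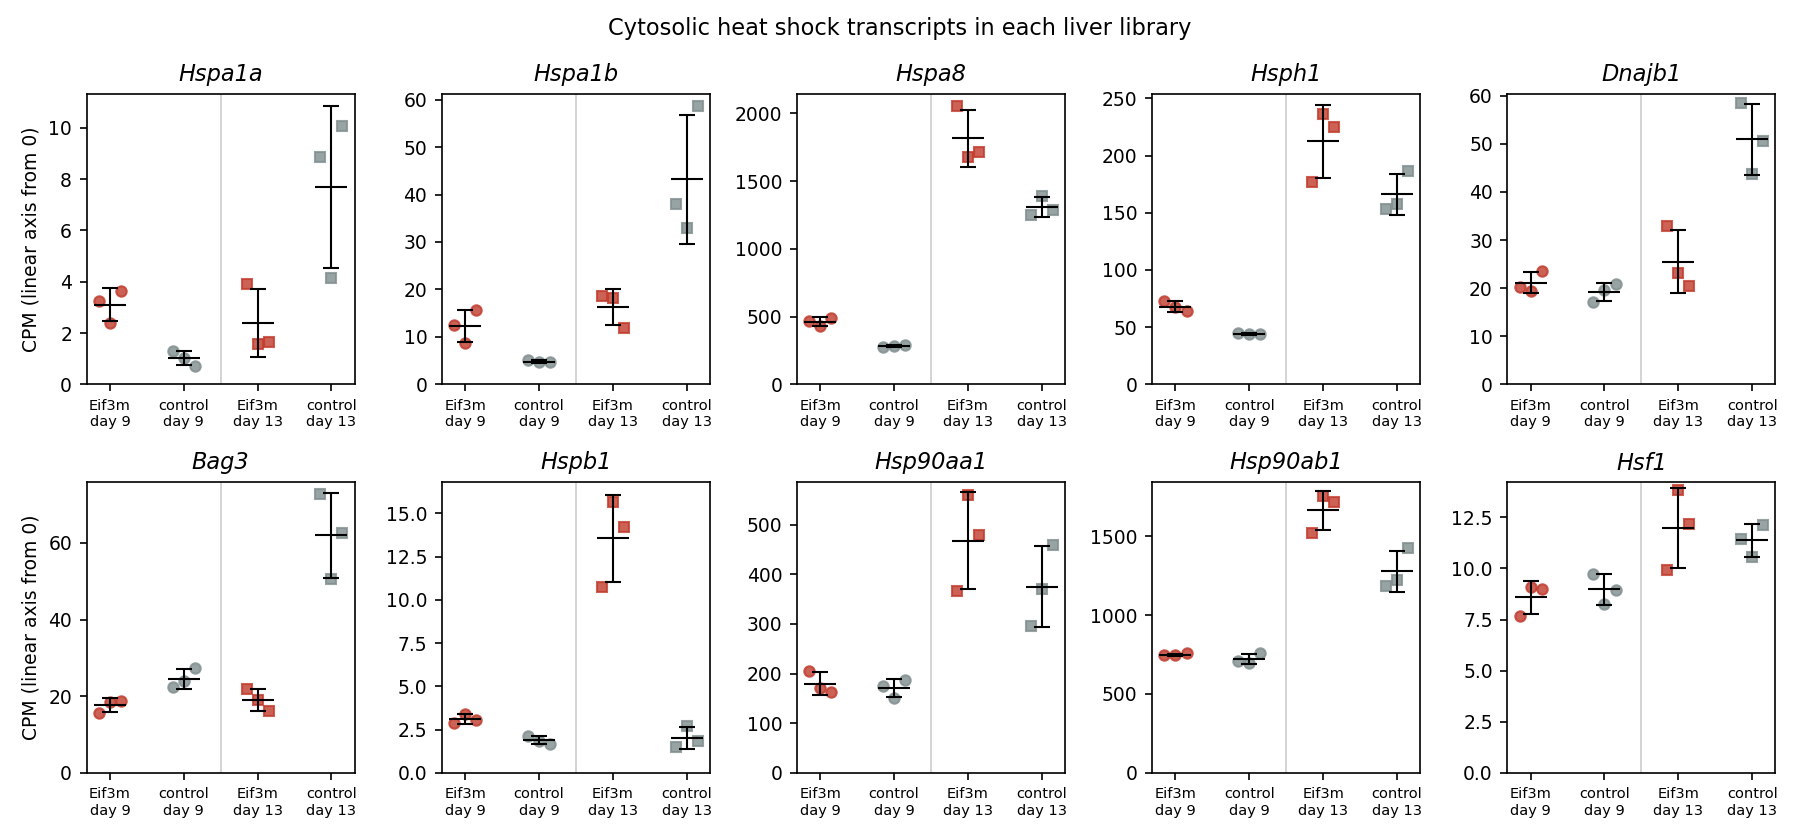
CPM on a linear axis from 0 for each of the 10 transcripts, with Eif3m siRNA (red) left of control (grey), day 9 as circles and day 13 as squares; each point is 1 library, and bars give the mean ± SD of 3 libraries. Hspa1a and Hspa1b are above control at day 9 and below it at day 13, Bag3 is below control at both days, and Hspb1 reaches 13.6 ± 2.52 CPM in the day 13 siRNA livers against 2.01 ± 0.631 CPM in controls.

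Hspa1a and Hspa1b are neighbouring genes without introns that encode nearly the same stress-inducible HSP70. In GENCODE release M21 of the mm10 build both lie on the minus strand of chromosome 17, Hspa1a (ENSMUSG00000091971) at chr17:34969190-34972156 and Hspa1b (ENSMUSG00000090877) at chr17:34956436-34959238, each a single exon. Their coding sequences were 99.58% identical over the 1926 bases of Hspa1a and the 1929 bases of Hspa1b, so the authors' counting could have split reads between them and each value alone is uncertain. The exon of Hspa1a also overlaps a gene of the other strand, Gm20481, and it is not given in the sources used here whether the counting used strand.

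The sequences before the start sites of both genes are shown because these 2 genes changed direction between the days. They are the 250 bases before the RefSeq start (build GRCm38.p6, minus strand, chr17:34972157-34972406 for Hspa1a and chr17:34959239-34959488 for Hspa1b). Capitals mark matches to GAANNTTC or TTCNNGAA, a pair of inverted heat shock element units in either order. Each motif reads the same on both strands, and matches that overlap were counted separately.
Hspa1a: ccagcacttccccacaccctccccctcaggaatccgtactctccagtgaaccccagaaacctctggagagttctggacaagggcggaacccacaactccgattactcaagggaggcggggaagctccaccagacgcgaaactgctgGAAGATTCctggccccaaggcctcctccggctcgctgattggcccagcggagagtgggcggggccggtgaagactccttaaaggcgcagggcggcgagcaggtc
Hspa1b: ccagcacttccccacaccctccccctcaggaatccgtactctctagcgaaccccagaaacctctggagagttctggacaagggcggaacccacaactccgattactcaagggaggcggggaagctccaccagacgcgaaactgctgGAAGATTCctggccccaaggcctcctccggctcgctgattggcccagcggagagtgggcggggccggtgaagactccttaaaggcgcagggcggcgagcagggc
The 2 windows differ at 3 of 250 bases. Each holds 1 match, at bases −104 to −97 before the start. Among 32851 start sites of the RefSeq table, 12.8% hold at least 1 match in a window of that length. A match describes the letters of the window and not binding by Hsf1.

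Hspa1a stood at 3.26, 2.38 and 3.63 CPM in the day 9 Eif3m siRNA livers and 1.29, 1.04 and 0.724 CPM in the day 9 controls. The groups did not overlap, and the siRNA mean was 3.04-fold the control mean in the fit (log2 1.60 ± 0.35 SE, adjusted p = 0.00928, edgeR's quasi-likelihood test with Benjamini-Hochberg adjustment, as for every adjusted p below). At day 13 it stood at 3.92, 1.58 and 1.64 CPM in the Eif3m siRNA livers and 8.88, 4.13 and 10.1 CPM in controls. Every siRNA library was again apart from every control, now on the lower side, but siRNA replicate 1 lay close to control replicate 2. The fitted change was 3.40-fold lower (log2 −1.76 ± 0.40, adjusted p = 0.00603). These levels rest on 28, 17 and 15 counts in the siRNA libraries and 66, 29 and 93 counts in controls. With control replicate 3 and siRNA replicate 2 of day 13 both left out, the day 13 change of Hspa1a was −1.29 and missed the threshold (adjusted p = 0.0789).

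Hspa1b, the more abundant of the pair, stood at 12.4, 8.80 and 15.6 CPM in the day 9 siRNA livers and 5.07, 4.59 and 4.61 CPM in controls. The control libraries lay close together, while the siRNA libraries spread widely above them. The change was 2.58-fold (log2 1.37 ± 0.24, adjusted p = 0.00336). At day 13 Hspa1b stood at 18.6, 18.3 and 11.9 CPM in the siRNA livers and 38.1, 32.9 and 58.6 CPM in controls, with no overlap. It was 2.67-fold lower (log2 −1.42 ± 0.25, adjusted p = 0.00142). The call did not depend on how reads were split between the copies. With the counts of both summed before the fit, the pair rose by 1.41 on the log2 scale at day 9 (adjusted p = 0.00316) and its change at day 13 was −1.46 (adjusted p = 0.00134). In bulk tissue, fewer cells of a type and less RNA per cell cannot be told apart, for these genes and for all others below.

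Hspa8 (chr9:40800984-40810087, plus strand) encodes HSC70, the HSP70 that cells make without stress. It stood at 469, 430.2 and 491 CPM in the day 9 siRNA livers and 277, 283 and 291 CPM in controls. At day 13 it stood at 2058, 1676 and 1712 CPM in the siRNA livers and 1252, 1389.6 and 1287 CPM in controls. The groups did not overlap at either day, and the siRNA libraries were the higher ones at both. The changes were 1.63-fold at day 9 (log2 0.71 ± 0.11, adjusted p = 0.00147) and 1.39-fold at day 13 (log2 0.47 ± 0.11, adjusted p = 0.00802). With day 13 fitted on its own 6 libraries, the day 13 change was 0.47 and missed the threshold (adjusted p = 0.0652). The annotated exons of Hspa8 overlap 3 small nucleolar RNA genes of the same strand, Snord14c, Snord14d and Snord14e. Unlike Hspa1a and Hspa1b, Hspa8 kept its direction, and its effect at day 13 minus that at day 9 was −0.23 (95% interval −0.58 to 0.11, adjusted p = 0.475).

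Hsph1 (chr5:149614287-149636376, minus strand) encodes HSP105, an HSP110 protein that exchanges nucleotide on HSP70. Its levels were 73.0, 67.3 and 63.7 CPM in the day 9 siRNA livers and 45.2, 43.7 and 44.0 CPM in controls. The siRNA libraries were all above the controls, by 1.53-fold (log2 0.62 ± 0.12, adjusted p = 0.00519). At day 13 the levels were 176, 236 and 225 CPM in the siRNA livers and 154, 158 and 186 CPM in controls. Here the groups overlapped, since siRNA replicate 1 was below control replicate 3. The change was 1.28-fold (log2 0.36 ± 0.12) and lay just inside the threshold (adjusted p = 0.0491). That call was lost under 18 of 22 alternatives, with adjusted p between 0.0114 and 0.170 over all of them. Hsph1 has 2 RefSeq starts, numbered here by genomic coordinate. The 250 bases before the first start hold 1 match to the inverted units, at −54 to −47. Before the second start the same match lies at −33 to −26.

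Dnajb1 (chr8:83608193-83612653, plus strand) encodes HSP40, the J-domain partner of the inducible HSP70. Its sequence is shown as 1 of the 5 members whose siRNA effect differed between the days (250 bases before the first of 2 RefSeq starts, GRCm38.p6, chr8:83607925-83608174, plus strand).
Dnajb1: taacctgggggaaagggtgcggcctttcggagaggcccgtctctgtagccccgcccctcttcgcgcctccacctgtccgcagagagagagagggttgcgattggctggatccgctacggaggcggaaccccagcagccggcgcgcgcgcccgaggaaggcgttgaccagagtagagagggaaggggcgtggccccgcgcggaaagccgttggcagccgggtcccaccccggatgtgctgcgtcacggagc
The window holds no match to the inverted units, which says only that these letters are not in it. Dnajb1 stood at 20.2, 19.5 and 23.6 CPM in the day 9 siRNA livers and 17.1, 19.6 and 20.8 CPM in controls, with the groups overlapping. The difference was log2 0.14 (95% interval −0.21 to 0.48, adjusted p = 0.632). In the day 13 livers it stood at 32.9, 23.1 and 20.5 CPM with Eif3m siRNA and 58.4, 43.7 and 50.6 CPM in controls. All siRNA libraries lay below all controls, 2.01-fold in the fit (log2 −1.01 ± 0.17, adjusted p = 8.73e-04).

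Bag3 (chr7:128523616-128546981, plus strand) encodes a nucleotide exchange factor of HSP70 that directs bound clients to selective autophagy and also binds small heat shock proteins. Its sequence is shown for the same reason as that of Dnajb1 (250 bases before the RefSeq start, GRCm38.p6, chr7:128523333-128523582, plus strand).
Bag3: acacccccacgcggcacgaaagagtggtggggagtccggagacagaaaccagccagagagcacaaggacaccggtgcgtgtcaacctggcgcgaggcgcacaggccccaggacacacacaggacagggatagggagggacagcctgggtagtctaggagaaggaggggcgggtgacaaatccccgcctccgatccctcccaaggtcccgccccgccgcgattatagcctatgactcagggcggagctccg
It holds no match to the inverted units. Bag3 stood at 15.6, 18.5 and 18.8 CPM in the day 9 siRNA livers and 22.3, 23.9 and 27.5 CPM in controls. At day 13 it stood at 21.8, 18.9 and 16.2 CPM in the siRNA livers and 72.7, 50.6 and 62.7 CPM in controls. The siRNA libraries were the lower ones at both days without overlap, narrowly at day 9 and widely at day 13. Bag3 was 1.39-fold lower at day 9 (log2 −0.48 ± 0.15, adjusted p = 0.0470) and 3.28-fold lower at day 13 (log2 −1.71 ± 0.16, adjusted p = 1.03e-05). The day 9 call was lost under 9 of 22 alternatives, 7 of which left out 1 library each, with adjusted p between 0.0144 and 0.175 over all of them. The day 13 call held under all 22.

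Hspb1 (chr5:135887919-135889563, plus strand) encodes HSP27 (HSP25 in the mouse), a small heat shock protein that forms oligomers and also binds actin filaments. Its sequence is shown because it was the only member whose siRNA effect was larger at day 13 in the upward direction by the test of the difference (250 bases before the RefSeq start, GRCm38.p6, chr5:135887669-135887918, plus strand).
Hspb1: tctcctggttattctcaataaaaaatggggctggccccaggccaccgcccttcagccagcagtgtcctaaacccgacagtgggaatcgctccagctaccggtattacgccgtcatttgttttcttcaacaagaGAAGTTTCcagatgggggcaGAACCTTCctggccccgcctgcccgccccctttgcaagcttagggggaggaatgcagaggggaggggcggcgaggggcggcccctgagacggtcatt
The window holds 2 matches, at −117 to −110 and −97 to −90, and 1.46% of the 32851 windows hold 2 or more. Hspb1 stood at 2.89, 3.40 and 3.03 CPM in the day 9 siRNA livers and 2.11, 1.86 and 1.67 CPM in controls. The groups did not overlap, and the change was 1.66-fold (log2 0.73 ± 0.19, adjusted p = 0.0210). The day 13 siRNA livers had 10.8, 15.7 and 14.2 CPM and the controls 1.48, 2.71 and 1.84 CPM. The lowest siRNA library was far above the highest control, and the change of 6.83-fold (log2 2.77 ± 0.23, adjusted p = 4.70e-06) was the largest of the 10 members at either day. Counts at day 13 were 77, 169 and 130 in the siRNA libraries and 11, 19 and 17 in controls. The day 9 call was lost with the day 9 counts thinned to the day 13 depth, and on leaving out siRNA replicate 2 or 3 or control replicate 2 or 3 of day 9 (adjusted p between 0.0502 and 0.0838), while the log2 fold change stayed between 0.65 and 1.10 over all 22 alternatives.

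**Figure D2:**
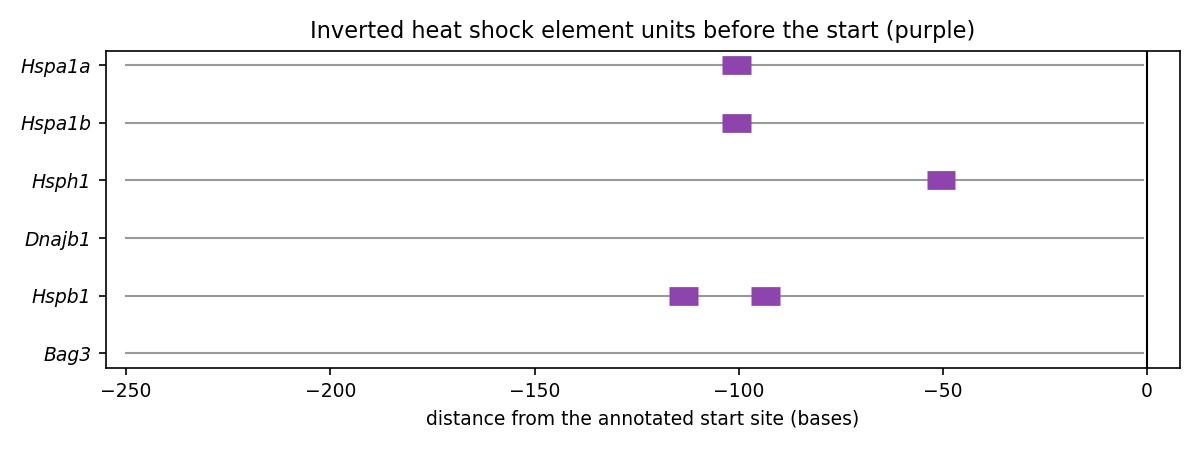
Position of each match to GAANNTTC or TTCNNGAA (purple) in the 250 bases before the RefSeq start of 6 members, with distance from the start in bases on the horizontal axis. For Hsph1 and Dnajb1 the first of 2 starts by genomic coordinate is drawn. Hspa1a and Hspa1b hold 1 match each at the same place, Hsph1 holds 1, Hspb1 holds 2, and Dnajb1 and Bag3 hold none.

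These windows were found for 6 of the 10 members. Hspa1a, Hspa1b, Hsph1 and Hspb1 held at least 1 match, all within the 125 bases nearest the start, where 6.43% of all 32851 windows have one. No window of a member held the longer array of 3 alternating units, each pair spaced by 2 bases, which 0.466% of all windows hold.

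Hsp90aa1 (chr12:110690605-110702728, minus strand) encodes the stress-inducible HSP90 alpha, and Hsp90ab1 (chr17:45567775-45573271, minus strand) the constitutive HSP90 beta. Their coding sequences are 76.28% identical. Hsp90aa1 stood at 205, 170.5 and 163 CPM in the day 9 siRNA livers and 176, 151 and 186 CPM in controls. The day 13 levels were 366, 559 and 480.0 CPM in the siRNA livers and 296, 369.6 and 459.6 CPM in controls. The groups overlapped at both days, and the differences of log2 0.07 (95% interval −0.31 to 0.45, adjusted p = 0.844) and 0.32 (95% interval −0.06 to 0.70, adjusted p = 0.212) did not pass the test. The day 13 interval reaches up to 1.62-fold.

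Hsp90ab1 stood at 745, 743 and 757 CPM in the day 9 siRNA livers and 709.9, 694 and 758 CPM in controls, with all siRNA libraries inside the range of the controls. The difference was log2 0.05 (95% interval −0.18 to 0.29, adjusted p = 0.796). At day 13 it stood at 1519, 1752 and 1718 CPM in the siRNA livers and 1186, 1222 and 1427 CPM in controls. The siRNA libraries were all above the controls (log2 0.38 ± 0.11, adjusted p = 0.0232). That call was lost under 7 of 22 alternatives, among them the fit of day 13 alone (adjusted p = 0.122) and leaving out any 1 of siRNA replicates 2 and 3 and control replicates 1 and 2 of day 13 (adjusted p between 0.0662 and 0.0874), while the log2 fold change stayed between 0.33 and 0.45 over all 22.

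Hsf1 (chr15:76477422-76501913, plus strand) encodes the heat shock transcription factor itself, whose activity is set mainly at the protein level. It stood at 7.66, 9.12 and 9.00 CPM in the day 9 siRNA livers and 9.75, 8.24 and 8.93 CPM in controls. The day 13 levels were 9.93, 13.8 and 12.2 CPM in the siRNA livers and 11.4, 10.5 and 12.1 CPM in controls. The groups overlapped at both days. The differences were log2 −0.06 (95% interval −0.35 to 0.22, adjusted p = 0.813) and 0.08 (95% interval −0.25 to 0.41, adjusted p = 0.753). Of the other heat shock factors and their binding proteins, Hsf2, Hsf4 and Hsbp1 were tested, and none of these 3 was called at either day (unadjusted p under 0.05 for 0 of 3 at day 9 and 1 of 3 at day 13).

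**Figure D3:**
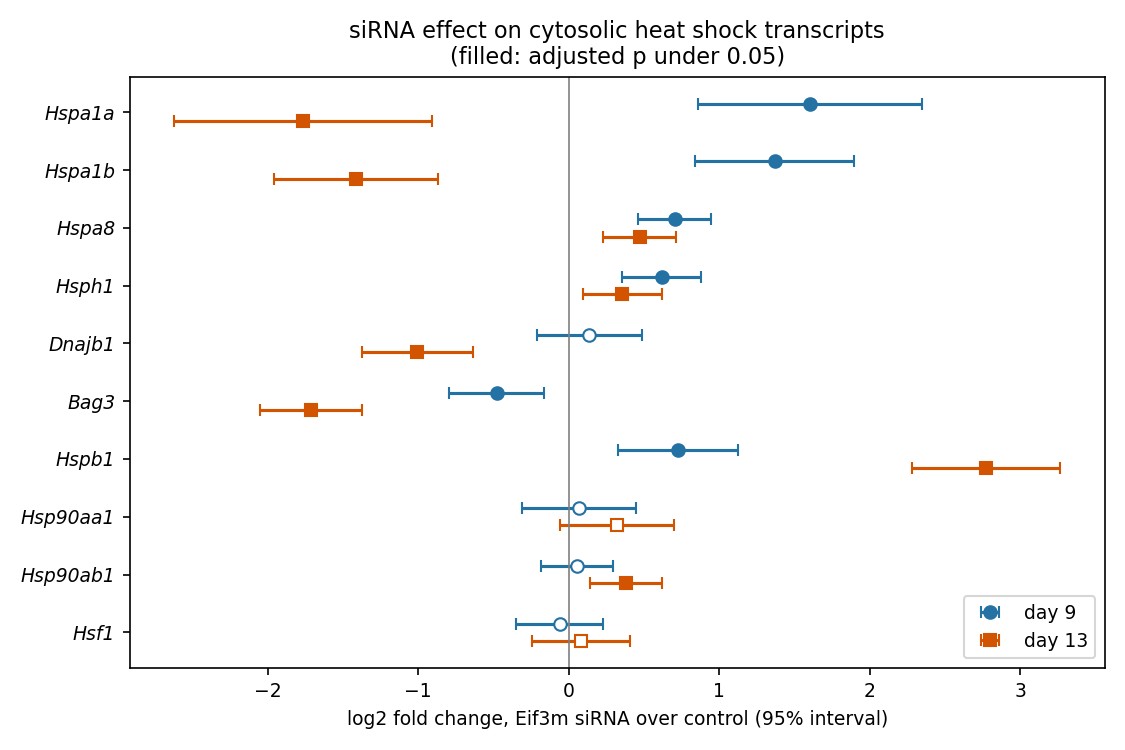
Log2 fold change of each member, Eif3m siRNA over control, with its 95% interval, for day 9 (blue circles) and day 13 (orange squares); filled symbols have an adjusted p under 0.05. Hspa1a and Hspa1b lie right of 0 at day 9 and left of it at day 13, Hspb1 reaches 2.77 at day 13, and Hsp90aa1 and Hsf1 are open at both days.

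The siRNA effect at day 13 minus that at day 9 was tested for each gene, and 5 of the 10 members passed, 1 with a higher effect at day 13 and 4 with a lower one. Over all tested genes, 0.898% were called higher, 1.66% lower and 2.55% in either direction in this test. Here too the members were chosen with earlier results known, so the shares are descriptive. The split was 128 genes higher and 236 lower, and 86 higher and 290 lower with upper-quartile scaling. The difference was log2 −3.37 ± 0.53 for Hspa1a (adjusted p = 0.00731) and −2.78 ± 0.35 for Hspa1b (adjusted p = 0.00256), the inducible HSP70 genes whose direction turned. It was −1.23 ± 0.21 for Bag3 (adjusted p = 0.0118), lower than control at both days and more so at day 13. For Dnajb1 it was −1.14 ± 0.23 (adjusted p = 0.0246). The only positive one of these 5 was Hspb1, at 2.04 ± 0.30 (adjusted p = 0.00477). The Dnajb1 call was lost on leaving out any 1 of 6 libraries, with adjusted p between 0.0523 and 0.0646, while the difference stayed between −1.36 and −1.02 over the 12 libraries left out in turn. With the day 9 counts thinned to the day 13 depth, the Hspb1 difference was 1.66 and missed the threshold (adjusted p = 0.0820). Hspa8, Hsph1, Hsp90aa1, Hsp90ab1 and Hsf1 did not pass, with differences between −0.26 for Hsph1 and 0.32 for Hsp90ab1.

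The values of each group are given beside those differences. Bag3 averaged 17.6 ± 1.78 CPM in the day 9 siRNA livers and 24.6 ± 2.63 CPM in the day 9 controls, and 19.0 ± 2.81 CPM in the day 13 siRNA livers and 62.0 ± 11.1 CPM in the day 13 controls (SD, n = 3 each). Its siRNA values were thus close at the 2 days, and the control values were not. Dnajb1 averaged 21.1 ± 2.20 CPM in the day 9 siRNA livers and 19.2 ± 1.88 CPM in controls, and 25.5 ± 6.53 CPM in the day 13 siRNA livers and 50.9 ± 7.34 CPM in controls (SD, n = 3 each). Hspa1b averaged 12.3 ± 3.41 CPM in the day 9 siRNA livers and 4.75 ± 0.269 CPM in controls, and 16.3 ± 3.76 CPM in the day 13 siRNA livers and 43.2 ± 13.6 CPM in controls (SD, n = 3 each). In these 3 genes the controls of the 2 days lay farther apart than the siRNA livers did. Hspb1 showed the other arrangement, with 3.11 ± 0.263 CPM in the day 9 siRNA livers and 1.88 ± 0.222 CPM in controls, and 13.6 ± 2.52 CPM in the day 13 siRNA livers and 2.01 ± 0.631 CPM in controls (SD, n = 3 each). There the siRNA livers differed between the days while the controls were close. Levels at day 9 and day 13 come from different library kits, so they were not tested against each other. Whether the controls or the siRNA livers changed between the days therefore cannot be told from these values.

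Per length of transcript, which adjusts for length alone, Hsp90ab1 and Hspa8 were the most abundant members in every group. In the day 9 siRNA livers Hsp90ab1 had 297 ± 2.98 CPM per kb and Hspa8 193 ± 12.8, and in the day 9 controls Hsp90ab1 had 286 ± 13.2 and Hspa8 119 ± 2.97 (SD, n = 3). The order of the means of these 2 was the other way at day 13, but day and library kit cannot be told apart in it. Hspa8 had 758 ± 88.1 CPM per kb and Hsp90ab1 659.9 ± 49.8 in the day 13 siRNA livers, and Hspa8 had 547 ± 29.9 and Hsp90ab1 507 ± 51.7 in the day 13 controls. In the day 13 siRNA livers the ranges did not overlap, at 700.0 to 859.5 CPM per kb for Hspa8 and 603 to 695 for Hsp90ab1, while in the controls they overlapped, so their order in the controls is not beyond the spread. Hsp90aa1 came next, at 48.1 to 60.7 CPM per kb in the day 9 siRNA livers and 44.8 to 55.1 in controls, and then Hsph1, at 15.1 to 17.3 in the day 9 siRNA livers and 10.3 to 10.7 in controls. At day 13 Hsp90aa1 ranged over 108 to 165 CPM per kb in the siRNA livers and 87.5 to 136 in controls, again above Hsph1 at 41.8 to 56.0 in the siRNA livers and 36.4 to 44.2 in controls. Below these 4, the day 9 siRNA livers had Bag3 at 6.88 ± 0.695 CPM per kb and Dnajb1 at 6.59 ± 0.687, with overlapping ranges, and then Hspa1b at 4.38 ± 1.22, whose range overlapped those of Hsf1 (3.81 ± 0.359) and Hspb1 (3.01 ± 0.256). In the day 13 siRNA livers Hspb1, at 13.2 ± 2.44 CPM per kb, lay above Dnajb1, Bag3, Hspa1b and Hsf1, and in the controls it lay below all of these at 1.95 ± 0.612. As listed, with the split of reads between Hspa1a and Hspa1b uncertain, Hspa1a was the lowest member except in the day 13 controls, where its range (1.39 to 3.39) overlapped that of Hspb1 (1.44 to 2.63).

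**Figure D4:**
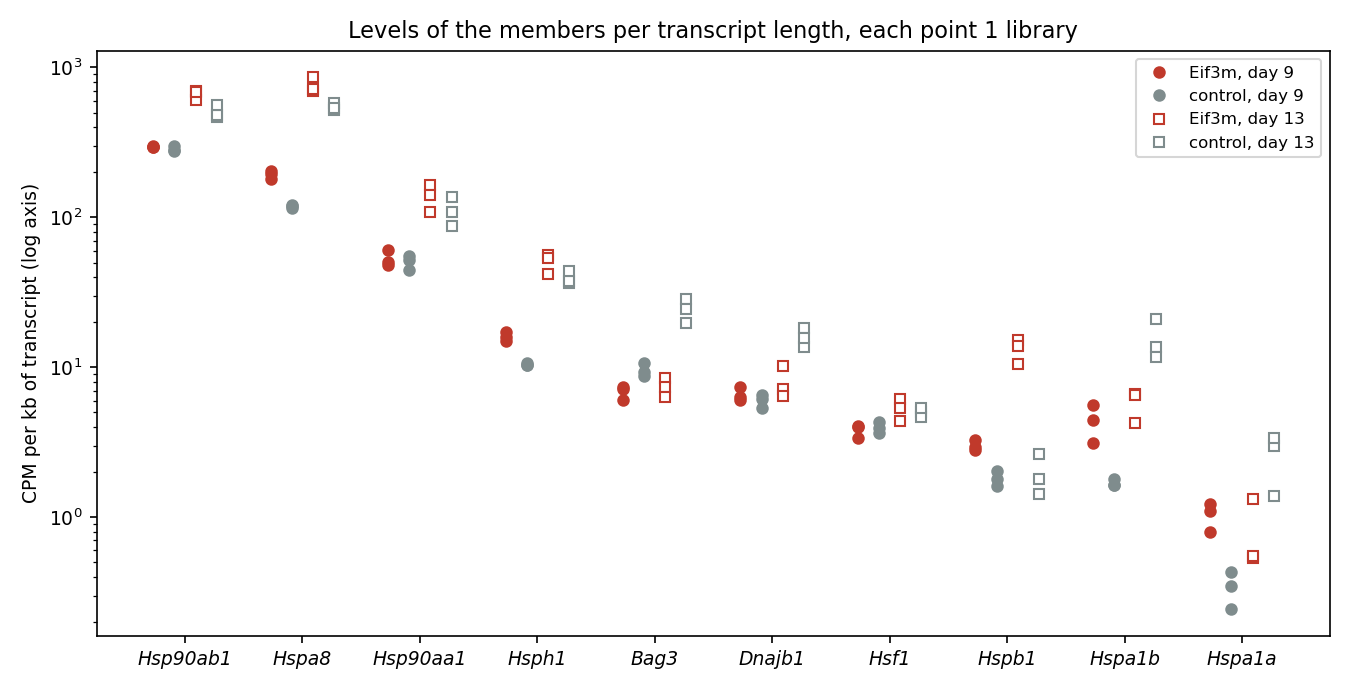
CPM per kb of transcript on a log axis for the 10 members, each point 1 library, with Eif3m siRNA (red) left of control (grey), day 9 as filled circles and day 13 as open squares. Hsp90ab1 and Hspa8 lie above 100 CPM per kb in all 12 libraries, and in the day 9 controls Hspa1a, whose reads may be shared with Hspa1b, lies lowest as listed, at 0.244 to 0.433.

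Ratios between members were compared per length of transcript. The inducible pair Hspa1a and Hspa1b together amounted to 2.78 ± 0.562 per 100 of Hspa8 in the day 9 siRNA livers and 1.72 ± 0.195 in controls (SD, n = 3). At day 13 the pair amounted to 0.868 ± 0.174 per 100 of Hspa8 in the siRNA livers and 3.32 ± 1.14 in controls. The groups did not overlap at either day, and the ratio was on opposite sides of control at the 2 days. Bag3 amounted to 3.57 ± 0.453 per 100 of Hspa8 in the day 9 siRNA livers and 8.07 ± 0.660 in controls, and to 0.977 ± 0.0859 in the day 13 siRNA livers and 4.46 ± 1.02 in controls. It was lower without overlap at both days. Hsp90aa1, the inducible HSP90, amounted to 17.9 ± 2.37 per 100 of Hsp90ab1 in the day 9 siRNA livers and 17.7 ± 1.23 in controls, and to 20.9 ± 2.93 in the day 13 siRNA livers and 21.7 ± 2.80 in controls, with overlap at both days. In a two-sided exact permutation test of 3 libraries against 3 the smallest possible p is 0.1. The pair and Bag3 reached 0.1 at both days by this exact test, and the HSP90 ratio gave p = 1 at day 9 and p = 0.7 at day 13. Hspa8 alone was higher and Bag3 alone lower without overlap at both days, so the Bag3 ratio had to separate. At day 13 the pair's genes were also lower without overlap, so that ratio too was bound to separate. The Bag3 ratio at both days and the pair's ratio at day 13 thus restate the separation of the single genes and are no further test. At day 9 the pair's genes and Hspa8 were all higher without overlap, so the separation of that ratio was not bound to follow. With a smallest possible p of 0.1, the exact permutation test could not call that ratio at 0.05.

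Other genes of the cytosolic folding machinery were counted from lists by role. Beside these counts stand the shares of all tested genes, 5.94% higher and 6.84% lower at day 9, and 12.8% higher and 10.9% lower at day 13. Among HSP90 co-chaperones, which load clients onto HSP90 or set its ATP cycle, 1 of 15 tested was higher at day 9 (Chordc1, log2 0.58, adjusted p = 0.0238) and 1 was lower (Fkbp4, −0.62, adjusted p = 0.00223). At day 13, 10 of 15 were higher and 0 lower (1 lower at an unadjusted p under 0.05), with a median log2 of 0.48 against 0 for all genes. They included Stip1 (HOP), which links HSP70 to HSP90, at 0.65 (adjusted p = 5.64e-04), the cyclophilin Ppid at 0.69 (adjusted p = 0.00178), Ttc4 at 0.51 and Aarsd1 at 0.61 (adjusted p = 0.00637 and 0.00748). Stip1 stood at 158, 181 and 188 CPM in the day 13 siRNA livers and 103, 118 and 116 CPM in controls. In the TRiC chaperonin, the ring that folds actin and tubulin, 2 of 8 subunits were higher at day 9 (Tcp1, 0.37, and Cct4, 0.36, adjusted p = 0.0179 and 0.0375), and all 8 were higher at day 13. The 8 day 13 changes lay between 0.40 and 0.94, with Cct4 at 0.94 and Cct5 at 0.89 (adjusted p = 4.98e-05 and 8.71e-05). Cct4 stood at 150.2, 129 and 141 CPM in the day 13 siRNA livers and 69.7, 83.1 and 66.8 CPM in controls. By the test of the difference between the days, 0 of 8 TRiC subunits and 0 of 15 HSP90 co-chaperones were called. At an unadjusted p under 0.05 in that test, 7 of 8 and 5 of 15 had a higher effect at day 13, and 1 of 15 a lower one. Of the 6 subunits of prefoldin, which hands nascent actin and tubulin to TRiC, none was called at day 9 (0 of 6 at an unadjusted p under 0.05) and Pfdn6 was higher at day 13 (0.68, adjusted p = 0.0101).

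Among 15 other cytosolic J-domain proteins, 3 were higher at day 9 (Dnajc2, 0.60, Dnaja2, 0.30, and Dnajc21, 0.33) and 1 lower (Dnajb2, −0.42), with adjusted p between 0.00263 for Dnajc2 and 0.0451 for Dnajc21. At day 13, 5 of 15 were higher (Dnaja2, Dnajc2, Dnajc7, Dnajc9 and Dnajc21) and 2 lower. The lower counts at the 2 days were near the shares of all tested genes called lower, 6.84% and 10.9%. Dnajc2, a partner of HSP70 on the ribosome, had the smallest adjusted p of the J-domain genes called at day 13 (0.99, adjusted p = 4.85e-05). Dnajc13 (−0.80, adjusted p = 0.00150) and Dnajb5 (−0.81, adjusted p = 0.0198) were lower. Of 6 other HSP70 and HSP110 genes, Hspa2 was lower at both days (−0.69 and −1.77, adjusted p = 0.0344 and 2.81e-04), and Hspa4, an HSP110 protein like Hsph1, was higher at day 13 (0.33, adjusted p = 0.0232). None of 8 HSP70 nucleotide exchange factors and co-chaperones other than Bag3 was called at either day (unadjusted p under 0.05 for 0 of 8 at day 9 and 2 of 8 at day 13). Among 4 other small heat shock proteins tested, Hspb6 (HSP20) was lower at both days (−1.10 and −1.39, adjusted p = 6.69e-04 and 3.29e-04), the opposite direction to Hspb1. Hspb6 stood at 2.24, 2.69 and 3.29 CPM in the day 13 siRNA livers and 8.34, 6.98 and 6.39 CPM in controls.

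Chaperones of other compartments were counted beside them, against the same shares of all tested genes (5.94% higher and 6.84% lower at day 9, 12.8% and 10.9% at day 13). Of 10 mitochondrial chaperones and proteases, Hspa9 (mortalin, the mitochondrial HSP70) and its J-domain partner Dnaja3 were higher at day 9 and Grpel2 lower, and at day 13 6 were higher and 0 lower, also at an unadjusted p under 0.05 for the lower side. Hspa9 changed by 0.84 at day 9 and 1.43 at day 13 (adjusted p = 4.65e-04 and 2.72e-06), and the protease Lonp1 by 1.37 at day 13 (adjusted p = 9.20e-06). Hspa9 stood at 1237, 1194 and 1227 CPM in the day 13 siRNA livers and 435, 463 and 462 CPM in controls. Of 14 chaperones of the endoplasmic reticulum, 1 was lower at day 9 (Pdia4, −0.38, adjusted p = 0.0305), near the 6.84% of all tested genes. At day 13, Dnajb9 (−1.68), Sdf2l1 (−0.94) and Pdia4 (−0.48) were lower and Dnajc3 (0.41) was higher, with adjusted p of 5.86e-06, 0.00450, 0.00455 and 0.0381. Hspa5 (BiP), the HSP70 of that compartment, was not called, at 0.14 and −0.09.

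**Figure D5:**
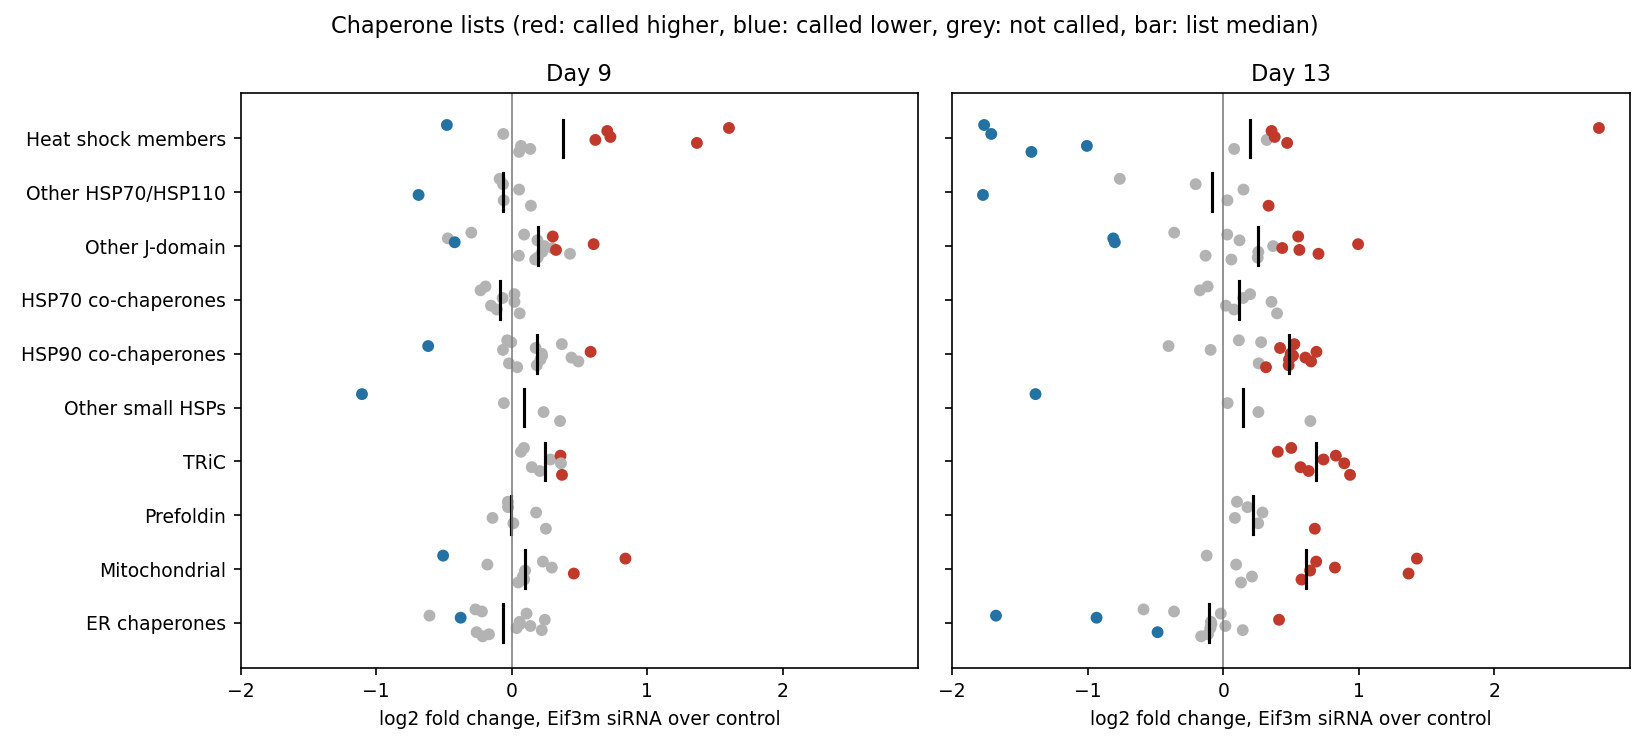
Log2 fold change, Eif3m siRNA over control, of each tested gene of 10 chaperone lists at day 9 (left) and day 13 (right); red points were called higher, blue points called lower, grey points not called, and black bars give the list median. At day 13 all 8 TRiC subunits and 10 of 15 HSP90 co-chaperones are red, while the 10 heat shock members hold 4 red and 4 blue points.

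Markers of other liver cells and of the animals' state moved between the same groups. For the counts here and in the next paragraph, the shares of all tested genes were 5.94% higher and 6.84% lower at day 9. At day 13 they were 12.8% and 10.9%. Of 7 tested monocyte and infiltrating macrophage markers, 2 were higher at day 9 (Lyz2, 1.26, and Ccr2, 1.24) and 2 lower at day 13 (Lyz2, −0.74, and Cd14, −1.14). All 7 had a positive log2 fold change at day 9 and 0 at day 13, but only Lyz2 was called at both days. The summed level of the monocyte list was mostly Lyz2. It was 110.0 to 125 CPM in the day 9 siRNA livers and 46.3 to 57.5 CPM in controls, and 69.0 to 85.0 CPM in the day 13 siRNA livers and 112 to 156 CPM in controls. Of 10 Kupffer cell markers, 3 were lower at day 9 (Clec4f, Vsig4 and Marco) and 9 at day 13 (all but Marco), with sums of 287 to 347 CPM in the day 9 siRNA livers and 371 to 453 in controls, and 154 to 245 in the day 13 siRNA livers and 371 to 459 in controls. Of 8 endothelial markers, 1 was higher at day 9 (Lyve1) and 4 lower at day 13 (Stab2, Lyve1, Cdh5 and Vwf), with sums of 296 to 341 CPM in the day 9 siRNA livers and 280.2 to 305 in controls, and 256 to 289 in the day 13 siRNA livers and 317 to 375 in controls. Of 8 stellate cell and fibroblast markers, 1 was higher at day 9 (Col3a1) and 3 lower at day 13 (Rgs5, Col1a1 and Col3a1), with sums of 351 to 391 CPM in the day 9 siRNA livers and 260.2 to 352 in controls, and 351 to 372 in the day 13 siRNA livers and 434 to 585 in controls. None of 5 muscle, 4 neutrophil and 8 lymphocyte markers tested was called at either day, and an unadjusted p was under 0.05 for 1 lymphocyte marker at day 9 and 1 muscle marker at day 13. The muscle genes Acta1 and Myl1 were at 0 in most libraries, and the neutrophil gene Ly6g was at 0 in 11 of 12. Of 5 cholangiocyte markers, Sox9 was higher at day 13 (2.02). Hbb-bt, Hba-a2 and Alas2, 3 of 5 erythroid markers, were lower at day 13, with sums of 704 to 1852 CPM in the day 13 siRNA livers and 2106 to 5963 CPM in controls. The part of these cells in the values of Hspa1a, Hspa1b, Dnajb1, Bag3 and Hspb1 was not tested.

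Of 8 hepatocyte markers, Ttr was lower at both days, Alb was lower and Cps1 higher at day 13, and the other 5 were not called. The summed level of the 8 was mostly Alb. It was 91971 to 98341 CPM in the day 9 siRNA livers and 116200 to 121940 CPM in controls, and 103220 to 160190 CPM in the day 13 siRNA livers and 173630 to 196820 CPM in controls. The median log2 fold change of the 8 was −0.03 at day 9 and 0.05 at day 13, with 4 of 8 positive at each day. Of 16 immediate early genes, which respond within minutes to stress and handling, 4 were higher (Jun, Atf3, Nr4a1 and Btg2) and 2 lower (Egr1 and Zfp36) at day 9, and 6 were higher and 2 lower (Klf2 and Klf4) at day 13. Egr1, an early growth response factor, ran opposite to Hspa1a and Hspa1b, at −2.30 and 3.90 (adjusted p = 0.0426 and 0.00624). At day 9 Egr1 stood at 13.5, 5.28 and 8.88 CPM in the siRNA livers and 52.7, 18.1 and 65.3 CPM in controls, which spread widely. It stood at 18.6, 71.5 and 79.7 CPM in the day 13 siRNA livers and 4.31, 4.99 and 2.38 CPM in controls. Junb averaged below control at day 9 and above it at day 13, like Egr1, while Jun and Atf3 averaged above control at both days. Of the 16, 10 had a positive log2 fold change at day 9 and 12 at day 13, so Egr1 does not stand for the list. Of 17 clock and cold-inducible genes, the cold-inducible Rbm3 was higher at both days (0.51 and 0.94). The cold-inducible Cirbp was called at neither day, and at day 9 it lay in the opposite direction to Rbm3 (−0.53, adjusted p = 0.110). At day 13 Cirbp averaged 6.20 CPM in the siRNA livers and 5.98 CPM in controls. The clock gene Per1, which glucocorticoids induce, was lower at day 13 (−1.67, adjusted p = 0.00682). Per1 stood at 29.0, 25.7 and 29.1 CPM in the day 9 siRNA livers and 10.7, 12.5 and 21.8 CPM in controls, and at 6.01, 7.23 and 3.18 CPM in the day 13 siRNA livers and 20.3, 10.5 and 21.2 CPM in controls. Its day 9 difference of 0.90 did not pass the test (adjusted p = 0.0725), although the groups did not overlap. The clock gene Arntl (BMAL1), chosen after its values were seen, varied within groups at day 13, at 8.81, 8.44 and 20.7 CPM in the siRNA livers and 3.63, 14.1 and 3.03 CPM in controls. The time of day at which livers were taken is not given in the labels, and the part of clock time or handling in the heat shock values was not tested.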

How the data were processed

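The values deposited by the authors are estimated counts for 50686 Ensembl genes in 12 libraries. Per the submitters' processing notes, the tools were STAR 2.5.3a and RSEM 1.3.0 and the build mm10. What each tool did, which annotation it read, whether strand was used and how genes were filtered is not given in the sources used here. All values were whole numbers, which RSEM does not give, and they were treated as rounded. Symbols, positions and exons came from GENCODE M21, in which 50462 identifiers had a symbol, and the 224 others held 0.0199% of the counts. The 10 members and all lists were chosen with earlier results of these data known.

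Genes were kept with filterByExpr of edgeR 4.0.16 (minimum count 10), which left 14248. CPM were computed with TMM factors. Groups were compared by edgeR's quasi-likelihood test, fitted robustly to all 12 libraries in a model of 4 groups (8 residual degrees of freedom), two-sided, with Benjamini-Hochberg adjustment over all tested genes. Its estimate of the spread is shared by the days, although the median SD of log2 CPM within a group was 0.13 and 0.14 at day 9 and 0.25 and 0.27 at day 13. Lengths are the merged exons of protein-coding transcripts of the GENCODE basic set. Ratios between members were compared by exact permutation of their log2 values. Promoter windows came from the RefSeq table of GRCm38.p6, and coding sequences were the longest reading frames of GENCODE transcripts, aligned with Biopython 1.88. Total counts per library ran from 38783564 to 54538581 at day 9 and from 7650269 to 9630027 at day 13, so low transcripts such as Hspa1a and Hspb1 are less precise at day 13. Replicates of every group differed by more than sampling noise. The genes named are the 10 members, Eif3m, up to 4 called members of each pathway list with the smallest p at a day, the called members of marker lists and those near 0, and every gene of a count of 5 or fewer.

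The alternatives were DESeq2 1.42.0 size factors or upper-quartile scaling in the edgeR fit, DESeq2 or limma-voom (limma 3.58.1) as the test, no filter, a filter at a mean of 5 CPM, a replicate block, each day fitted alone, day 9 counts thinned to the day 13 depth, the counts of Hspa1a and Hspa1b summed, leaving out each library, and, chosen after seeing the data, leaving out control replicate 3 and siRNA replicate 2 of day 13 together. The edgeR, DESeq2 and limma-voom fits were tested on simulated counts, with changes placed only in genes with a mean above 5 CPM. Genes as low as Hspa1a were thus not covered, and the ratios, lists and motif search were not part of it. Analyses used R 4.3.3 and Python 3.11.15 with pandas 2.3.3 and matplotlib 3.10.9.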

Additional observations from a re-analysis of the deposited data

Results flagged for a closer look

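The siRNA effect differed between the days, by the test of the day 13 effect minus the day 9 effect, for 5 of the 10 heat shock members. The difference was −3.37 for Hspa1a, −2.78 for Hspa1b, −1.14 for Dnajb1, −1.23 for Bag3 and 2.04 for Hspb1 on the log2 scale. In Hspa1a and Hspa1b siRNA livers were above control at day 9 and below control at day 13. The library kit changed with the day, so day and kit cannot be told apart in any of these differences.

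By the same test, the effect differed between the days for 15 genes of the other lists. Among chaperones these were the mitochondrial protease Lonp1 (1.07) and Dnajb9 of the endoplasmic reticulum (−1.92). Among immediate early and clock genes they were Junb (1.51), Egr1 (6.20) and Per1 (−2.56). Among macrophage and monocyte markers they were Adgre1 (−1.53), Csf1r (−1.39), Lyz2 (−2.00), Ccr2 (−1.64) and Cd14 (−1.22). Among endothelial, stellate and cholangiocyte markers they were Lyve1 (−2.07), Vwf (−0.79), Col1a1 (−2.34), Col3a1 (−1.70) and Sox9 (1.71). All adjusted p were under 0.05 by edgeR's quasi-likelihood test, and the part of these genes' cells or states in the heat shock values was not tested.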

How the results depend on the processing

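The 4 members lower at day 13 stayed 4 in number under the alternatives except for 3 with the filter at a mean of 5 CPM, where Hspa1a was not tested, and 3 with day 13 siRNA replicate 2 and control replicate 3 both left out. No member reversed a call. The 1 member lower at day 9 (Bag3) became 0 with upper-quartile scaling and with day 9 counts thinned, and 0 to 1 on leaving out 1 library. The 4 members higher at day 13 became 2 without a filter, 2 with the replicate block, 1 with each day fitted alone, and 2 to 4 on leaving out 1 library. The 5 members higher at day 9 and the 5 called in the difference between the days ranged over 4 to 5 on leaving out 1 library. Among all genes, the 1821 called at day 9 became 2740 with limma-voom, 3412 with each day alone, 1159 thinned, 3050 without those 2 libraries, and 884 to 2250 on leaving out 1 library. The 3377 called at day 13 became 2014 with each day alone (2299 to 3288 on leaving out 1 library). The 364 called in the difference became 991 with DESeq2, 117 with the replicate block, 216 thinned, and 130 to 508 on leaving out 1 library. Upper-quartile scaling gave 86 higher and 290 lower in the difference, against 128 and 236, and 1574 higher and 1808 lower at day 13, against 1824 and 1553. The causes of these moves were not tested. Same-numbered libraries did not deviate together (correlations of −0.11, −0.16 and 0.16 at day 9 and 0.081, −0.067 and −0.013 at day 13), so the replicate number was not taken to pair them. Each day alone gives no value for the difference. Without the same 2 libraries, Dnajb1 missed the threshold in the difference between the days (log2 −1.09, adjusted p = 0.0513, edgeR's quasi-likelihood test). Depth limits the day 13 values of Hspa1a, with counts of 15 to 28 in the siRNA libraries, and of Hspb1, with counts of 11 to 19 in the controls.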
